A study of Mus musculus with 31 samples.

Results

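Interferon gamma-induced GTPases are large cytosolic enzymes that hydrolyse GTP and act against microbes inside cells. Expression of 8 of them, listed by name (Gbp2, Gbp3, Gbp5, Gbp6, Irgm1, Irgm2, Igtp and Iigp1), was followed across 31 arrays of mouse lung. A listed gene was measured by the probe set that the platform annotation assigns to it alone. Only 4 of the 8 genes had such a probe set, Gbp3 (10496580), Gbp5 (10496539), Irgm1 (10385500) and Iigp1 (10455961), out of 19938 genes with a probe set of their own and 14705 that passed a filter on dim probe sets. The other 4 are read only by probe sets whose annotation names several genes. Probe set 10496592 lists Gbp2 and Gbp2b, probe set 10376326 lists Irgm2 and Igtp, and probe set 10531994 lists 6 Gbp genes, among them Gbp6, so their values are assigned to no gene.

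The arrays measured RNA of whole lung from male AKR and C57BL/6 mice (both inbred; the second is written C57), all labelled with an age of 6 weeks. Mice were exposed to cigarette smoke or kept in room air, and then had LPS in saline (lipopolysaccharide, the endotoxin of Gram-negative bacteria) or saline alone instilled into the trachea. For C57 there were 3 arrays each of room air alone (6 weeks), air and saline, smoke and saline, air and LPS, and smoke and LPS. For AKR there were 2 arrays of room air alone at 3 weeks and 3 at 6 weeks, 3 each of air and saline, smoke and saline, and air and LPS, and 2 of smoke and LPS. The titles give 3 weeks of exposure to the instilled mice and the series description gives 6, so exposure time is uncertain. The titles call the arrays biological replicates without saying more, so p-values measure the spread between these arrays, and the number of arrays limits the precision of every value.

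Interferon gamma, made mainly by natural killer cells and T cells, binds a receptor of the subunits Ifngr1 and Ifngr2 and turns on genes through STAT factors, which bind GAS elements, and IRF factors, which bind interferon-stimulated response elements (ISRE). Among the most strongly induced products are the guanylate-binding proteins (GBPs) and the immunity-related GTPases (IRGs), which assemble on membranes around intracellular bacteria and parasites. In mice Irgm1, Irgm2 and Igtp are the regulatory IRGs that guard host membranes and hold effector IRGs such as Iigp1 inactive, whereas GBPs expose bacterial LPS to caspases and so feed into inflammasomes.

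To show the control regions behind these probe sets, the DNA upstream of the genes was taken from RefSeq promoter windows (GRCm38.p6, 250 bases before to 50 after each gene's start), which covered 6 of the 8 listed genes. The windows were searched on both strands for a GAS element (TTCNNNGAA) and an ISRE (GAAANNGAAA). An ISRE was found in a window of all 6 genes, against 3.44% of 32851 promoters, and a GAS in 3 of 6, against 8.3%. Windows with both motifs made up 0.454% of all promoters, and Gbp5, Irgm2 and Igtp were among them. A match is a run of letters and not a measured binding site. The 250 bases upstream of 3 genes with a probe set of their own are printed 5′ to 3′ on the gene's strand, with matches in capitals. They lie at chr3:142559794-142560043 (plus strand) for Gbp3, chr3:142496684-142496933 (plus strand) for Gbp5 and chr11:48871421-48871670 (minus strand) for Irgm1.
Gbp3: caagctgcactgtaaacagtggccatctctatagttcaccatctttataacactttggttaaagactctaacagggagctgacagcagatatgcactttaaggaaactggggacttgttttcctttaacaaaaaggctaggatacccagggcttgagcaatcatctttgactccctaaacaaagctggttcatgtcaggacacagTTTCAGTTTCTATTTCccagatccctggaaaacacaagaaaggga
Gbp5: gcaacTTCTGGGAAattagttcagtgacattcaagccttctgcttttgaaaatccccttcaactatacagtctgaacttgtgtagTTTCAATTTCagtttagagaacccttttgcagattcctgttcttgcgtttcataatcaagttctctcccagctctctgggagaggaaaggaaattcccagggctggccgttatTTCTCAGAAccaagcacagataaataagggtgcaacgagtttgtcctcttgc
Irgm1: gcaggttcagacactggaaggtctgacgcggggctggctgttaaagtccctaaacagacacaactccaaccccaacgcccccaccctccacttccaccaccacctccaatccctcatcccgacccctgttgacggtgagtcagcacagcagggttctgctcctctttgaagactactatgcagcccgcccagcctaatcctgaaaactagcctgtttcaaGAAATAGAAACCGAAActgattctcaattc

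In Gbp3 and in Irgm1 the capitals are 2 ISRE matches that overlap each other, at positions -45 to -30 in Gbp3 and -30 to -15 in Irgm1, counted back from the gene's start. Gbp5 held a GAS match at each end and an ISRE match between them. RefSeq lists 2 promoters for Gbp3, and the second held neither motif. Shorter windows around the matches are shown for 3 genes read only by shared probe sets, because Irgm2 and Igtp, which share probe set 10376326, also share this arrangement. They lie on the plus strand at chr3:142620598-142620619 (Gbp2), chr11:58214896-58214928 (Irgm2) and chr11:58199505-58199537 (Igtp).
Gbp2: ttttagTTTCACTTTCactgtc
Irgm2: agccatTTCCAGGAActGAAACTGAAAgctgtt
Igtp: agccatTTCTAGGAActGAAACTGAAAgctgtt

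In Irgm2 and in Igtp a GAS match, in the capitals nearer the 5′ end, was followed by the same ISRE letters, GAAACTGAAA. Gbp2 held an ISRE match without a GAS match.

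The label of lung tissue was borne out by the markers of alveolar and airway epithelium. Sftpc (surfactant protein C) read 12.99 to 13.83 and Scgb1a1 (the club cell secretory protein) 13.1 to 13.79 on the log2 intensity scale over all 31 arrays. The deposited values fell into separate array sets. All 15 C57 arrays and the 3 AKR arrays of room air at 6 weeks had array medians of 6.96 to 7.1, and the other 13 AKR arrays had medians of 6.8 to 6.9, so only room air alone at 6 weeks compares the strains within a set. A pair of C57 arrays went against their labels. The array labelled smoke and saline, replicate 3, read 12.47 for Saa3 (an acute-phase protein) and the array labelled smoke and LPS, replicate 3, read 6.06, whereas the other arrays read 6.1 and 6.36 with smoke and saline and 12.64 and 12.85 with smoke and LPS. For Gbp3, Gbp5, Irgm1 and Iigp1 the first of these arrays lay above the rest of its group but below the other arrays with smoke and LPS. Gbp3, for example, read 9.11 there, against 8.62 and 8.78 with smoke and saline and 11.21 and 9.47 with smoke and LPS. Both departing arrays were kept under their labels, they widen the shared estimate of the spread, and results that rest on them are given with and without this pair.

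All 4 GTPase genes rose with LPS after room air in both strains, by 4.27-fold to 12.1-fold in C57 and by 8.62-fold to 27.1-fold in AKR. Gbp5, which in mice promotes assembly of the NLRP3 inflammasome, had log2 intensities of 7.55, 7.11 and 7.49 in C57 with saline and of 11.2, 11.07 and 10.67 with LPS. In AKR Gbp5 read 6.43, 6.7 and 6.06 with saline and 11.44, 11.83 and 10.2 with LPS. The groups did not overlap in either strain, and the AKR array of LPS replicate 3 was the lowest of the 6 LPS arrays. Gbp5 rose by 3.59 ± 0.61 log2 units (SE; 12.1-fold) in C57 and by 4.76 ± 0.61 (27.1-fold) in AKR, with limma adjusted p of 0.0028 and 2.6e-05.

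Iigp1, an effector IRG that coats parasite vacuoles in mouse cells, read 8.59, 8.22 and 8.59 in C57 with saline and 11.44, 11.62 and 11.17 with LPS. In AKR it read 6.62, 6.23 and 6.4 with saline and 11.12, 11.72 and 10.58 with LPS. The LPS arrays of the strains reached similar values, while all 3 saline arrays of AKR lay below all 3 of C57. Iigp1 rose by 2.94 ± 0.54 (7.69-fold, limma adjusted p = 0.0034) in C57 and by 4.72 ± 0.54 (26.4-fold, adjusted p = 7.1e-06) in AKR.

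Irgm1, a regulatory IRG that mice need for resistance to mycobacteria, read 9.13, 9.04 and 9.3 in C57 with saline and 11.71, 11.66 and 11.5 with LPS. In AKR Irgm1 read 8.09, 7.79 and 8.08 with saline and 11.6, 11.96 and 10.41 with LPS. No saline array reached an LPS array in either strain. Irgm1 rose by 2.46 ± 0.46 (5.52-fold, limma adjusted p = 0.0037) in C57 and by 3.34 ± 0.46 (10.1-fold, adjusted p = 6.7e-05) in AKR.

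Gbp3, a member of the GBP cluster on chromosome 3, read 8.59, 8.15 and 8.57 in C57 with saline and 10.84, 10.67 and 10.1 with LPS. In AKR Gbp3 read 7.92, 8.08 and 7.05 with saline and 11.16, 11.45 and 9.77 with LPS. Here too the groups did not overlap. Gbp3 rose by 2.10 ± 0.47 (4.27-fold, limma adjusted p = 0.007) in C57 and by 3.11 ± 0.47 (8.62-fold, adjusted p = 0.00014) in AKR, and was the gene of the 4 that rose least in each strain.

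Of the 14705 genes tested, 11.5% rose after LPS in C57 and 9.45% in AKR, where 4 of 4 GTPase genes did. The share of all genes whose groups did not overlap was not counted, here or in later comparisons. The median log2 fold change of the 4 genes was 2.7 in C57 and 4.03 in AKR, beside -0.01 and -0.04 over all genes tested. Without the departing C57 pair the fold changes were the same and the adjusted p-values lay between 3.3e-07 and 0.00073 in C57. The lungs were measured whole, so a change in the number of cells of a type and a change in RNA per cell cannot be told apart in this or any later result. The plot of the 4 genes by group shows these values beside those of the other treatments.

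**Figure D1:**
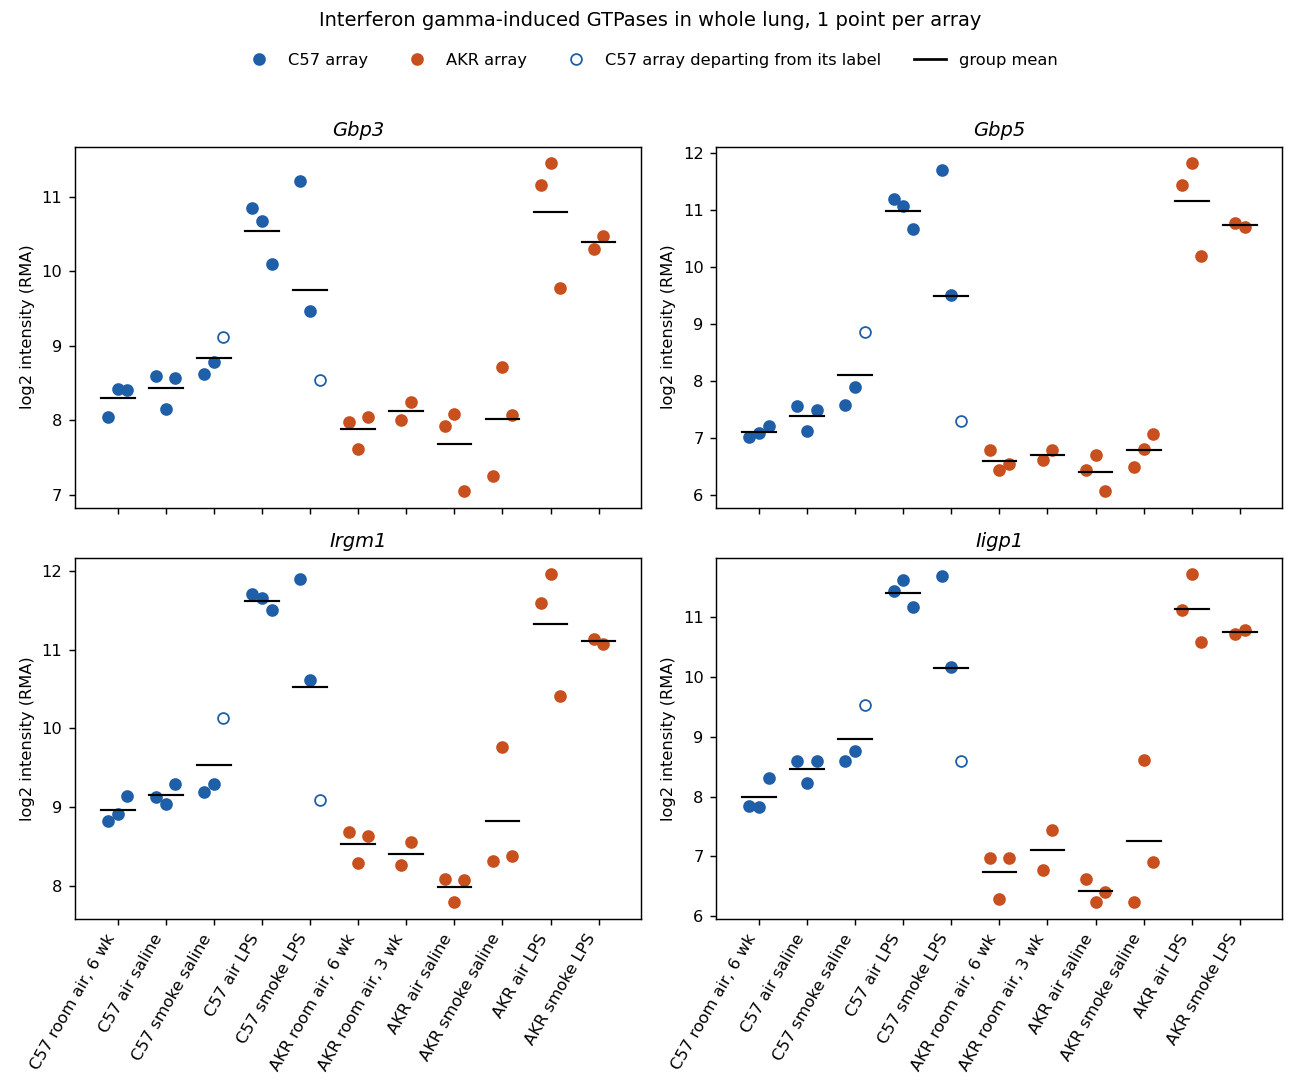
Log2 intensity (vertical axis) of Gbp3, Gbp5, Irgm1 and Iigp1 on each array, by group (horizontal axis); points are arrays, bars are group means, and open points are the pair of C57 arrays that went against their labels. For Gbp5 the AKR arrays with air and LPS sit between 10.2 and 11.83, and those with air and saline between 6.06 and 6.7.

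The probe sets shared by the remaining listed genes moved the same way. Probe set 10376326 (Irgm2 and Igtp) read 9.71, 9.4 and 9.65 in C57 with saline and 11.79, 12.09 and 11.41 with LPS, and in AKR 7.76, 7.66 and 6.82 with saline and 11.09, 11.69 and 10.31 with LPS. All saline arrays lay below all LPS arrays of their strain. Tested with every probe set as a feature, a choice made after seeing the data, 10376326 rose by 2.18 ± 0.44 log2 units in C57 and by 3.62 ± 0.44 in AKR, with limma adjusted p of 0.0064 and 3e-05. Probe set 10496592 (Gbp2 and Gbp2b) rose by 2.87 ± 0.51 and 3 ± 0.51, and probe set 10531994 (6 Gbp genes) by 2.38 ± 0.5 and 3.36 ± 0.5, in C57 and AKR respectively (adjusted p at most 0.0073). Among the 23825 features of that fit 11.3% were called in C57 and 11.5% in AKR, in either direction.

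Among the other GBP and IRG genes, 10 of 17 listed were tested. With LPS after air 7 of 10 rose in C57 and 8 of 10 in AKR, beside 11.5% and 9.45% of all genes tested. Gm12250, whose RefSeq synonym is Irgb10 and which acts with GBPs on bacterial membranes in mouse cells, rose by 3.77 ± 0.69 in C57 and by 4.15 ± 0.69 in AKR. Gm4951 (RefSeq synonym Ifgga2) rose by 2.36 ± 0.54 and 4.07 ± 0.54, and Gbp4 by 1.99 ± 0.45 and 3.34 ± 0.45. The remaining genes that rose in both strains were Gbp7, Gbp8, Gbp9 and Gbp11, by 1.33 to 2.64 in C57 and by 2.22 to 2.95 in AKR. Irgc1 and Irgq did not pass in either strain, with log2 fold changes of -0.31 and -0.14 in C57 and of 0.03 and -0.14 in AKR.

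Gbp2b was the family member that passed in AKR and not in C57. It read 5.89, 5.53 and 5.8 with saline and 6.4, 6.36 and 6.49 with LPS in C57, and 5.71, 5.89 and 5.75 with saline and 9.44, 9.89 and 7.86 with LPS in AKR. The highest value of Gbp2b on any C57 array was 6.92, below the lowest AKR array with air and LPS. The difference between the strains in the LPS effect was 2.61 ± 0.46 (limma adjusted p = 0.0043), where 0.802% of all genes were called higher in AKR by this interaction. Probe set 10496592, which lists Gbp2b beside Gbp2, had a difference of 0.13 ± 0.72 in the same interaction (adjusted p = 0.99).

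**Figure D2:**
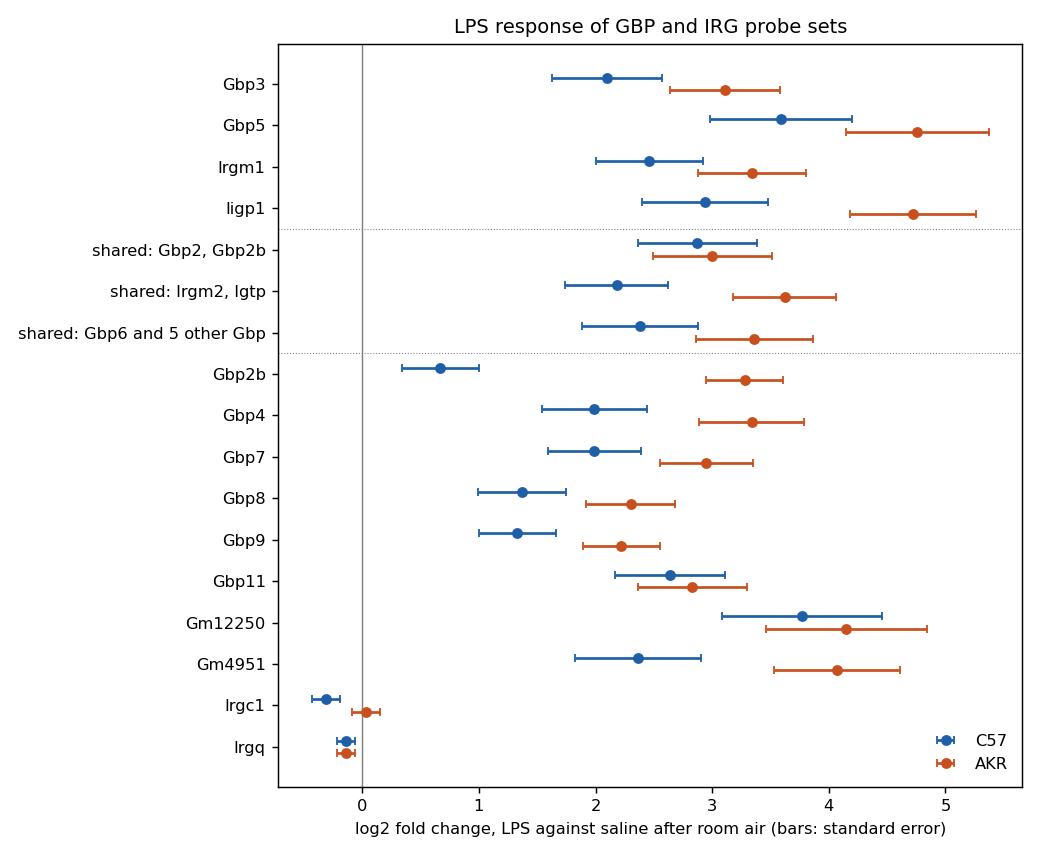
Log2 fold change of LPS against saline after room air (horizontal axis) for GBP and IRG probe sets (vertical axis) in C57 and AKR, with standard errors as bars. Gbp2b stands at 0.67 in C57 and at 3.28 in AKR, and Irgc1 and Irgq lie near 0 in both strains.

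All 4 GTPase genes also rose with LPS after smoke in AKR. Gbp5 read 6.49, 6.8 and 7.07 with smoke and saline and 10.77 and 10.7 with smoke and LPS, a rise of 3.95 ± 0.68 (limma adjusted p = 2e-04). Iigp1 read 6.23, 8.62 and 6.91 with saline and 10.72 and 10.78 with LPS and rose by 3.5 ± 0.6 (adjusted p = 0.00019). Irgm1 rose by 2.28 ± 0.52 (adjusted p = 0.0021) from 8.32, 9.76 and 8.38 to 11.14 and 11.08. Gbp3 rose by 2.37 ± 0.53 (adjusted p = 0.0018) from 7.25, 8.72 and 8.07 to 10.3 and 10.47. The LPS arrays lay above every saline array for each of the 4 genes, with 2 arrays against 3, and the share of all genes that separate so was not counted. By the limma test 16.9% of all genes rose in this comparison.

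In C57 after smoke the call depended on the departing pair. Gbp5 read 7.57, 7.89 and 8.85 with smoke and saline and 11.7, 9.5 and 7.29 with smoke and LPS, where the last array of each group is the one that departs. With every array under its label the log2 fold change of Gbp5 was 1.39 and no GTPase gene passed (limma adjusted p from 0.56 to 0.58). The share of all genes called was 0%. An unadjusted p under 0.05 in this test was found for 3 of the 4, beside 1300 of all 14705 genes tested. Without the pair Gbp5 rose by 2.87 ± 0.46 (adjusted p = 0.00011), Iigp1 by 2.26 ± 0.52 (0.0034), Irgm1 by 2.02 ± 0.42 (0.0015) and Gbp3 by 1.64 ± 0.5 (0.024). In that fit 10.9% of all genes rose.

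The 2 remaining C57 arrays with smoke and LPS differed from each other more than any pair of C57 arrays with air and LPS. Replicate 1 read 11.21 for Gbp3, 11.7 for Gbp5, 11.9 for Irgm1 and 11.69 for Iigp1, the highest of all C57 arrays for each gene. Replicate 2 read 9.47, 9.5, 10.61 and 10.17, below every C57 array with air and LPS, while its Saa3 value of 12.85 was the highest among the LPS arrays.

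Smoke itself was compared with air under each instillation. With saline, the log2 differences of smoke against air lay between 0.38 and 0.72 in C57 and between 0.33 and 0.84 in AKR, and none of the 4 genes passed (limma adjusted p at least 0.86, and 0 of 4 with an unadjusted p under 0.05, in both strains). Over all genes tested 0% were called in C57 and 0.034% in AKR. Of these 14705 genes, 906 in C57 and 944 in AKR had an unadjusted p under 0.05. The 95% interval of Gbp5 ran from -0.53 to 1.97 in C57, and that of Iigp1 from -0.27 to 1.94 in AKR. Without the departing pair the C57 values lay between 0.08 and 0.35. With LPS, the differences lay between -1.48 and -0.79 in C57 and between -0.42 and -0.22 in AKR, and no gene passed (adjusted p at least 0.75; in C57 3 of 4 had an unadjusted p under 0.05, in AKR 0 of 4). The shares of all genes called were 0% in C57 and 0.0068% in AKR. An unadjusted p under 0.05 was found for 217 of all 14705 genes in C57 and for 2342 in AKR. Without the departing pair the C57 differences with LPS lay between -0.48 and -0.2. Without replicate 1 of C57 smoke and LPS, which leaves the departing array and replicate 2, the difference for Gbp5 was -2.58 ± 0.46 and passed (adjusted p = 0.018). The interaction of smoke and LPS passed for no GTPase gene, with values from -2.2 to -1.19 in C57, or -0.72 to -0.45 without the pair, and from -1.23 to -0.74 in AKR. By this interaction 0% of all genes were called in either strain. The effect of smoke with saline was not shown to differ between strains (interaction from -0.33 to 0.46, adjusted p = 1, with 0% of all genes called).

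The AKR array of smoke and saline replicate 2 stood apart from the other AKR arrays without LPS. Its Iigp1 value of 8.62 compared with 6.23 and 6.91 on the other arrays of the group and with 6.23 to 6.62 with air and saline. Irgm1, at 9.76, Gbp3, at 8.72, and probe set 10376326, also at 8.72, were the highest of their group, whereas Gbp5, at 6.8, lay between its neighbours. On this array Irf7 (a transcription factor of the type I interferon response) read 10.87, against 7.82 and 7.66, and Zbp1 (a sensor of unusual nucleic acids) read 9.5, against 7.16 and 7.39. Ifng read 5.5 and Irf1 read 9.27 there, within the range of the AKR saline arrays. These genes were chosen after their values were seen. Without this array the smoke difference with saline was 0.15 ± 0.52 for Iigp1, against 0.84 with it, and -0.02 ± 0.52 for Gbp3, against 0.33. The rise of Iigp1 with LPS after smoke was 4.18 ± 0.57 without it (limma adjusted p = 6.2e-05).

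The strains were next compared under the same treatment. With air and saline, Iigp1 was lower in AKR by a log2 difference of -2.05 ± 0.54 (limma adjusted p = 0.0044) and Irgm1 by -1.17 ± 0.46 (adjusted p = 0.049). For Gbp5 the difference was -0.99 (adjusted p = 0.21, or 0.04 without the departing C57 pair) and for Gbp3 -0.75 (adjusted p = 0.22). These arrays belong to different array sets, and 31.1% of all genes tested were called lower in AKR, so the count of 2 of 4 stands on a high background (34.5% without the pair, where 3 of 4 were called). Probe set 10376326 (Irgm2 and Igtp) differed by -2.17 ± 0.44 (adjusted p = 0.00058), where 34.6% of all features were called in either direction.

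Room air alone at 6 weeks offers the same comparison within an array set. Iigp1 read 7.85, 7.83 and 8.31 in C57 and 6.98, 6.29 and 6.97 in AKR, and the groups did not overlap. The difference was -1.25 ± 0.54, with a 95% interval from -2.36 to -0.15 and a limma adjusted p of 0.32 (0.13 without the departing pair, and 0.026 when only these 6 arrays were fitted). The other genes differed by -0.41 (Gbp3), -0.52 (Gbp5) and -0.42 (Irgm1), and none passed, beside 1.39% of all genes called lower. Probe set 10376326 read 9.43, 9.55 and 9.75 in C57 and 8.69, 8.53 and 8.64 in AKR, again without overlap, with a difference of -0.96 ± 0.44 that did not pass (adjusted p = 0.4). Gm4951 read 7.6, 8.12 and 8.28 against 6.66, 6.32 and 6.59. The strain labels of the AKR arrays in this set held for Nnt (a mitochondrial enzyme that differs between strains), at 9.71 to 9.98 against 8.14 to 8.76 on the C57 arrays.

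With air and LPS no GTPase gene differed between strains past the threshold. The log2 differences of AKR against C57 were 0.26 for Gbp3, 0.18 for Gbp5, -0.3 for Irgm1 and -0.27 for Iigp1, with limma adjusted p from 0.64 to 0.84, where 40.1% of all genes were called in either direction. The 95% intervals ran from -1.08 to 1.43 for Gbp5 and from -1.37 to 0.84 for Iigp1, so differences within these ranges were not excluded. Whether the LPS effect itself differed between strains was tested as an interaction. It was 1.01 for Gbp3, 1.16 for Gbp5, 0.87 for Irgm1 and 1.78 ± 0.76 for Iigp1, with a larger value in AKR for each, and none passed (adjusted p from 0.35 to 0.7). For Iigp1 the adjusted p was 0.027 when only the 12 arrays involved were fitted, and the interaction was 0.62 ± 0.8 when room air alone replaced air and saline. After smoke the interaction lay between 1.29 and 2.55 (adjusted p from 0.12 to 0.33, with 1.47% of all genes called larger in AKR). Without the departing pair it lay between 0.26 and 1.24. Without replicate 1 of C57 smoke and LPS it lay between 1.97 and 3.65, and all 4 genes passed. That fit leaves the departing array and replicate 2 for C57 smoke and LPS, and its share of all genes called was not counted.

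**Figure D3:**
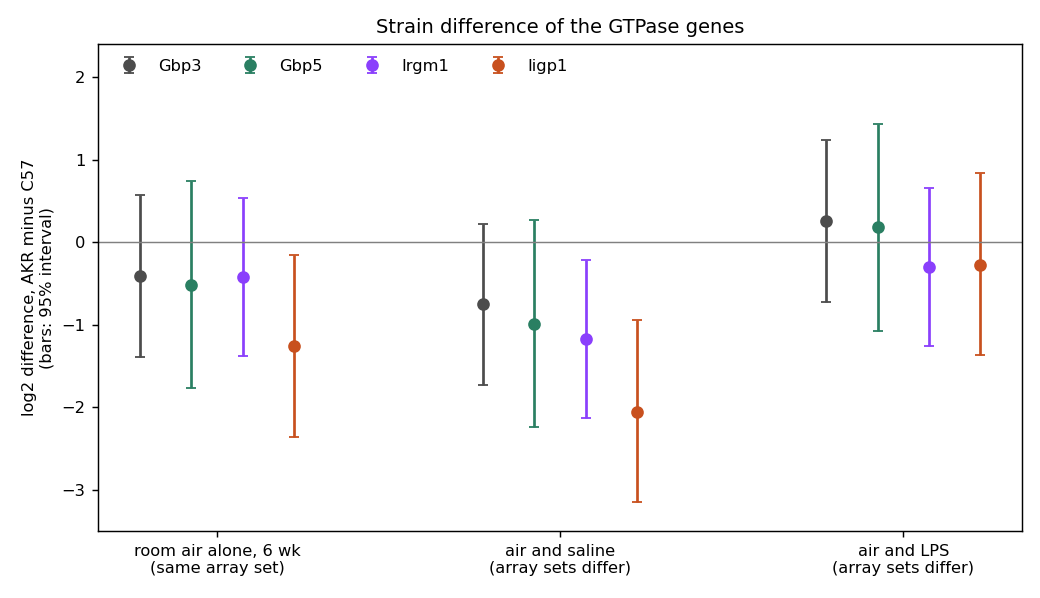
Log2 difference of AKR minus C57 (vertical axis) for the 4 GTPase genes in 3 treatments (horizontal axis), with 95% intervals as bars. Iigp1 lies at -1.25 in room air alone and at -2.05 with air and saline, and at -0.27 with air and LPS.

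Saline after air against room air alone gave log2 differences from 0.15 to 0.47 in C57 and from -0.69 to -0.3 in AKR, where the reference was the 3-week arrays, and no gene passed (limma adjusted p at least 0.57; 0 of 4 had an unadjusted p under 0.05 in either strain). The shares of all genes called were 0.0136% and 0.687%. An unadjusted p under 0.05 was found for 907 of all 14705 genes in C57 and for 2701 in AKR. In AKR the 3-week and 6-week arrays of room air differed by -0.13 to 0.36 for the 4 genes, none of which passed, beside 7.58% of all genes, and these groups lie in different array sets.

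Over the 11 groups the 4 LPS groups had the highest mean for each gene. AKR with air and LPS ranked first for Gbp3 (mean 10.79, SD 0.899) and Gbp5 (mean 11.16, SD 0.848), and C57 with air and LPS for Irgm1 (mean 11.62, SD 0.107) and Iigp1 (mean 11.41, SD 0.224), each with n = 3. AKR with air and saline was the lowest group for all 4 genes. Groups next to each other in this order overlapped in 9 of 10 cases for Gbp3, Gbp5 and Irgm1 and in 10 of 10 for Iigp1. The exceptions were C57 smoke and saline over C57 air and saline for Gbp3 and Gbp5, and AKR room air at 3 weeks over AKR air and saline for Irgm1. These overlaps include the departing pair. Without it each of these C57 smoke groups holds only 2 arrays, and C57 smoke and LPS lay above C57 smoke and saline for all 4 genes. Gbp5 read from 9.5 against at most 7.89, and Gbp3 from 9.47 against at most 8.78. The share of all genes that separate in this way was not counted. The means of C57 smoke and LPS without the pair were 11.26 for Irgm1 and 10.93 for Iigp1, which puts it above AKR smoke and LPS (11.11 and 10.75) for these genes.

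Ifng, the gene of interferon gamma itself, rose with LPS after air by 3.08 ± 0.9 in C57 (limma adjusted p = 0.024) and by 4.13 ± 0.9 in AKR (0.0027). It read 9.64, 9.01 and 9.52 in C57 with air and LPS, and the mean of the 4 GTPase genes on these arrays, measured from their mean over all 31 arrays, was 2.39, 2.34 and 1.95. In AKR with air and LPS Ifng read 11.16, 10.7 and 6.96, and the GTPase mean was 2.43, 2.83 and 1.33. In AKR with smoke and LPS Ifng read 7.44 and 7.62, beside 1.82 and 1.85. In C57 with smoke and LPS it read 11.64, 7.18 and 6.18, beside 2.72, 1.03 and -0.53. In AKR with air and LPS and in C57 with smoke and LPS the array lowest in Ifng was also the lowest in the GTPases, and in C57 with air and LPS it was not. In C57 with smoke and LPS that array is the departing replicate 3. Of the others in that group, replicate 2 was below replicate 1 in both. AKR air and LPS replicate 3, low in both, had the highest Saa3 value of its group, 12.75. Ifng lay between 5.14 and 6.53 on the arrays labelled without LPS.

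**Figure D4:**
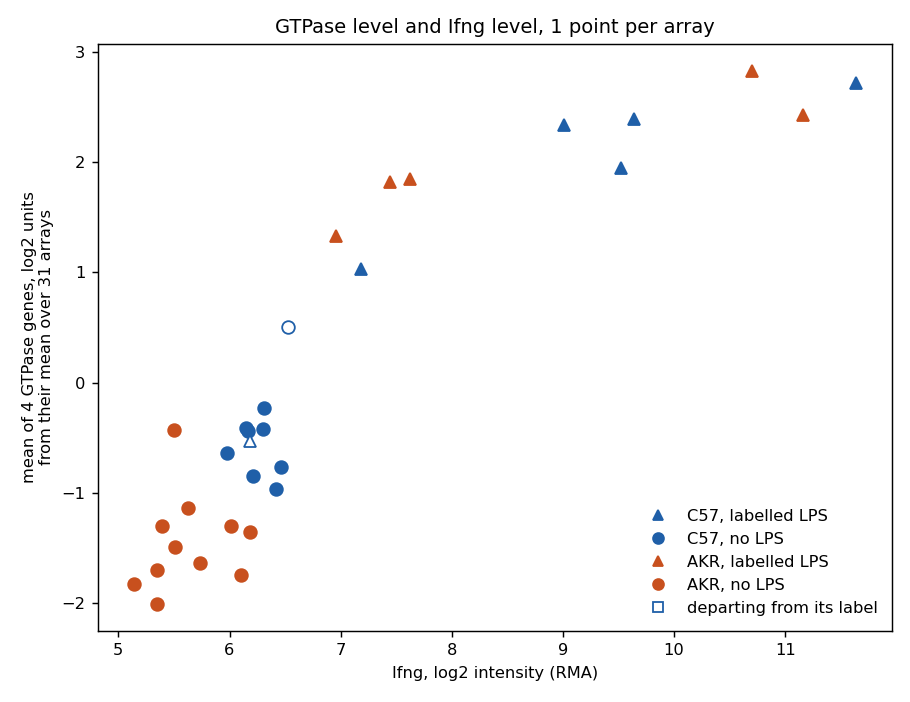
Mean of Gbp3, Gbp5, Irgm1 and Iigp1 in log2 units from their mean over 31 arrays (vertical axis) against the log2 intensity of Ifng (horizontal axis); each point is an array, coloured by strain, with triangles for arrays labelled LPS and open symbols for the departing pair. The C57 arrays with air and LPS lie at Ifng values of 9.01 to 9.64 and GTPase means of 1.95 to 2.39, and the AKR arrays with smoke and LPS at 7.44 and 7.62 and at 1.82 and 1.85.

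Of 12 genes for interferon gamma and its inducers, 6 rose with LPS after air in C57 and 9 in AKR, beside 11.5% and 9.45% of all genes tested, shares that also stand beside the counts of the lists that follow. Il18rap, a subunit of the interleukin 18 receptor, rose by 1.07 ± 0.34 in C57 and by 2.36 ± 0.34 in AKR, and Il12b, a subunit of interleukin 12, by 1.32 ± 0.39 and 2.04 ± 0.39. The medians of this list were 0.74 and 1.17. Of 13 receptor and signalling genes tested (14 listed), 8 rose in C57 and 10 in AKR, with medians of 0.77 and 1.07.

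The receptor subunit Ifngr2 rose by 0.38 ± 0.11 in C57 and by 0.59 ± 0.11 in AKR, and the values of 0.04 and 0.27 for Ifngr1 did not pass. Irf1, a transcription factor that binds ISRE elements, rose by 1.77 ± 0.34 in C57 and by 2.11 ± 0.34 in AKR. Batf2 rose by 2.05 ± 0.47 and 2.51 ± 0.47, and Socs3, a feedback inhibitor of cytokine signalling, by 1.95 ± 0.43 and 2.05 ± 0.43. Irf8, a factor of myeloid cells, rose by 1.39 ± 0.27 in AKR, and in C57 its value of 0.77 did not pass (limma adjusted p = 0.05).

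Other known targets of interferon gamma rose in 15 of 19 cases in C57 and in 18 of 19 in AKR, with medians of 1.29 and 1.76. Cxcl9 and Cxcl10, chemokines for T cells and natural killer cells, rose by 5.8 ± 0.97 and 5.81 ± 1.01 in C57 and by 5.88 ± 0.97 and 5.83 ± 1.01 in AKR. Cxcl11, of the same family, rose by 2.6 ± 0.68 and 4.53 ± 0.68.

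Genes of inflammasomes, on which GBPs act, rose in 7 of 9 cases in C57 and in 8 of 9 in AKR. Il1b, the cytokine that inflammasomes release, rose by 3.09 ± 0.82 in C57 and by 4.57 ± 0.82 in AKR. Nlrp3 rose by 2.81 ± 0.66 and 4.03 ± 0.66, and Casp4, which encodes the LPS-sensing caspase of mice, by 1.42 ± 0.38 and 1.99 ± 0.38.

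Partners in membrane targeting and autophagy rose in 3 of 14 cases in each strain, with medians of 0.12 and 0.03, beside the 11.5% and 9.45% of all genes that rose. Trim21, a ubiquitin ligase, rose by 1.21 ± 0.24 in C57 and by 1.27 ± 0.24 in AKR, and Lgals3, which binds sugars exposed on damaged vacuoles, by 0.7 ± 0.22 and 0.68 ± 0.22. Map1lc3a, an autophagy protein of the ATG8 family, had values of -0.3 and -0.42 that did not pass. Of 8 type I interferon genes tested, 5 rose in C57 and 4 in AKR, Irf7 by 2.94 ± 0.78 and 3.08 ± 0.78 and Stat2 by 1.48 ± 0.29 and 1.41 ± 0.29. Tlr4, the LPS receptor, rose by 0.77 ± 0.17 in C57, and its value of 0.3 in AKR did not pass.

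With LPS after smoke in AKR there were rises in 8 of 10 other GBP and IRG genes, 4 of 12 ligand and inducer genes, 12 of 13 receptor and signalling genes, 17 of 19 other targets and 9 of 9 inflammasome genes, beside 16.9% of all genes. Of the type I interferon genes 6 of 8 rose, and of the membrane and autophagy partners 4 of 14 rose and 1 fell. In C57 after smoke no gene of any list passed with all arrays. Without the departing pair the counts there were 5 of 10, 8 of 12, 8 of 13, 14 of 19 and 9 of 9 in the same order, beside 10.9% of all genes. Of the type I interferon genes 5 of 8 rose, and of the membrane and autophagy partners 2 of 14 rose and 2 fell.

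Markers of cells that make or answer interferon gamma were read in the same comparisons. With LPS after air, where 11.5% of all genes rose in C57 and 9.45% in AKR, 0 of 8 natural killer cell markers and 0 of 7 T cell markers passed in C57, while 6 of 8 and 5 of 7 rose in AKR. The mean of the natural killer markers, in log2 units from their mean over 31 arrays, lay between 0.86 and 1.08 with air and saline and between 1.09 and 1.52 with air and LPS in C57, and between -1.84 and -1.38 and between -0.76 and 0.21 in AKR. Monocyte and macrophage markers rose in 6 of 8 cases in C57 and 7 of 8 in AKR, and neutrophil markers in 2 of 10 and 10 of 10. These marker counts come from the fit of all arrays, whose shared spread the departing pair widens. A difference in counts is not a test between the strains. The mean of the monocyte and macrophage markers lay between -0.26 and -0.16 with saline and between 0.99 and 1.16 with LPS in C57, and between -1.04 and -0.92 and between 0.37 and 0.81 in AKR. The mean of the neutrophil markers lay between -0.57 and 0.17 with saline and between 1.5 and 1.74 with LPS in C57. In AKR the neutrophil mean lay between -1.59 and -1.37 with saline and between 1.33 and 2.1 with LPS. In the comparison of the strains with air and saline, where Iigp1 and Irgm1 were lower in AKR, 8 of 8 natural killer, 7 of 7 T cell and 7 of 7 B cell markers were lower as well, beside 31.1% of all genes, between arrays of different sets. The T cell mean lay there between 0.45 and 0.62 in C57 and between -0.86 and -0.62 in AKR. In room air alone at 6 weeks 2 of 8 natural killer markers and 0 of 7 T cell markers were lower, beside 1.39% of all genes, with natural killer means of 0.16 to 0.4 in C57 and -0.39 to -0.3 in AKR. The part of these cells in the GTPase values was not tested.

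The genes whose pattern over the 31 arrays was most like the mean of the 4 GTPases were found by the root mean square difference of centred log2 values. The 14691 genes ranked left out the 4 GTPases and the other GBP and IRG genes tested above. Zbp1 was the closest, at 0.335 log2 units, followed by Gm4841 (RefSeq synonym Ifgga3) at 0.392, Rsad2, an antiviral enzyme, at 0.461, and Cd274, the immune checkpoint ligand PD-L1, at 0.462. Tnfaip3, Gpr31b, Tnfaip2 and Ptafr followed at 0.498 to 0.502. The 4 GTPases lay 0.303 to 0.44 from their own mean, which each of them enters, so these distances cannot be set against those of other genes. The median over the 14691 genes ranked was 1.58. Zbp1 rose with LPS after air by 2.8 ± 0.62 in C57 and by 3.36 ± 0.62 in AKR.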

How the data were processed

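RNA of whole lung was hybridised to Affymetrix arrays, per the labels' protocols. The authors deposited log2 intensities obtained by RMA, a background correction, quantile normalization and probe summary, per the submitters' processing notes; its version and settings, and a genome build, are not given in the sources used here. Of 35556 probe sets, the platform annotation supplied with the values gives 1 symbol to 21789, several to 1621 and none to 12146; 99.6% of Entrez identifiers of the named ones matched RefSeq (GRCm38.p6). The probe set with the highest mean stood for a gene (999 genes had several). Genes above the 40th percentile of an array on at least 3 arrays (14705) were tested with limma 3.58.1 in R 4.3.3: a fit of 11 group means to 31 arrays (20 residual degrees of freedom), two-sided contrasts, moderation of variances by empirical Bayes, and p-values adjusted by Benjamini-Hochberg over all genes of a contrast, called at an adjusted p under 0.05. Gbp3 and Irgm1 were above the percentile on 31 arrays, Gbp5 and Iigp1 on 29. The fit was tested on simulated data. Unless SD is written, ± gives the fit's standard error. A value such as 27.1-fold is 2 to the power of that change.

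The members, gene lists and alternatives were chosen with earlier results of these data known. The genes named are the listed GTPases and the 8 genes most like them outside the GBP and IRG lists. By the same rule the 3 tested genes per list that changed most with LPS after air are named, with Ifng, Ifngr1, Ifngr2, Irf1 and Irf8. Others are given as family members or were chosen after their values were seen. A further gene of that rule is not reported here. Alternatives covered normalization, array shifts, the filter, probe set choice, array weights, empirical Bayes options, a replicate block, the reference group, the arrays fitted and each array left out. Arrays of a group correlated at 0.899 to 0.993, and none were identical. Plots used matplotlib 3.10.9 (Python 3.11.15).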

Additional observations from a re-analysis of the deposited data

How the results depend on the processing

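The 4 calls for LPS after air in C57 and in AKR held under 11 alternatives, and those for LPS after smoke in AKR under the 10 of them that apply to it (room air alone as the reference was run for LPS after air and its strain interaction only). All held with each of 31 arrays left out. For LPS after smoke in C57, 0 of 4 genes passed with all arrays, 3 with array weights and 4 without the departing pair, and 0 to 4 with an array left out (4 without smoke and LPS replicate 3). For AKR against C57 with air and saline, 2 passed, and 1 with quantile normalization, with arrays shifted to the same median, with trend and robust moderation, with a replicate block, and with all probe sets as features (chosen after seeing the data), whereas 3 passed without the departing pair and with only the arrays compared; the range with an array left out was 1 to 2. Smoke against air with LPS in C57 went from 0 to 1 with array weights, and was 0 to 1 with an array left out. AKR against C57 in room air alone at 6 weeks went from 0 to 1 with array weights and with only the arrays compared, and strain by LPS after air from 0 to 1 with only the arrays compared. Strain by LPS after smoke went from 0 to 1 with array weights, and was 0 to 4 with an array left out (4 without C57 smoke and LPS replicate 1, a fit that keeps the departing pair). Among the alternatives, the share of all genes called was counted only without the departing pair and with all probe sets as features. The other moved counts therefore have no share to stand beside. The cause of these moves was not tested. No value that passed changed sign. The other counts were 0 under every alternative run for them. Numbers in the titles did not pair arrays across most of the groups compared: of 71 same-numbered pairs 27 correlated over 0.1, with a range from -0.773 to 0.549. Among direct comparisons, exceptions were C57 air and saline against room air alone, where all 3 did (0.225 to 0.409), and AKR smoke against air with LPS. There the pairs of replicates 1 and 2 correlated at 0.54 and 0.44. In each of these comparisons 0 GTPase genes passed with or without the block. Elsewhere the replicate block changed the call of Irgm1 with air and saline alone (adjusted p = 0.052). Probe sets of their own read 4 of the 8 listed genes, and 2 or 3 arrays a group limit what could be detected.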
